A study of Mus musculus with 48 samples.

Results

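The 10 genes described here encode products of the secretory and mucous cells that line the airways: Scgb1a1, Scgb3a2, Scgb3a1, Bpifa1, Muc5b, Muc5ac, Lypd2, Tff2, Reg3g and Retnla. They were taken by Ensembl identifier from a list, and they make up 10 of the 42548 genes in the count table. The table holds identifiers alone, so each symbol is the one the list pairs with its identifier. All 10 passed the filter on low counts in the fits over all 24 libraries of a compartment and in the fits between compartments.

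The study asked how the lung epithelium of mice responds to bleomycin, a drug given to injure the lung, and what inhibition of IRE1α or TGFβ does to that response. RNA was taken from RiboTag mice, in which an HA-tagged ribosomal protein lets ribosomes of chosen cells be pulled down with an anti-HA antibody, and libraries were made with the Lexogen QuantSeq Forward kit, which reads the 3′ ends of transcripts. The 24 mice, of both sexes, each yielded 1 library of epithelium and 1 of whole lung, 48 in all. Neither the driver of the tagged protein nor the age of the mice is given in the sources used here, and the labels state the same anti-HA extraction for both compartments, so how the whole lung libraries differ in preparation is unknown. The 6 saline mice had control treatment, 3 labelled Vehicle in batch S135 and 3 labelled Axum8 in S151. The 9 bleomycin control mice were 3 in S061 and 2 in S135, all labelled Vehicle, and 4 in S151 labelled Axum8. KIRA8, known as an inhibitor of the stress sensor IRE1α, was given with bleomycin to 3 mice of S061 and 2 of S135. The antibody 3G9, known to bind the integrin αvβ6, which activates TGFβ, was given with bleomycin to 4 mice of S151. What Axum8 is the labels do not say, and no KIRA8 mouse shares a batch with a 3G9 mouse.

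Club cells are the main secretory cells of the mouse airway and release secretoglobins, small proteins of the airway fluid, with Scgb1a1 as their best known product. Goblet cells and the submucosal glands make the gel-forming mucins Muc5ac and Muc5b, and antimicrobial proteins such as Bpifa1 and Reg3g are part of the same fluid. Club cells also act as progenitors of other airway cells after injury. Retnla, also called Fizz1, is made by lung epithelium and, in other settings, by alternatively activated macrophages.

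Upstream sequence from RefSeq (build GRCm38.p6, 250 bases ending at the base before the gene's start) was at hand for 4 of the 10 members. It is printed for Retnla and Bpifa1, which stood at opposite ends of the bleomycin response, and for Scgb3a1, the member most enriched in epithelium. Each is given 5′ to 3′ on the gene's strand, here the plus strand for all 3. Capitals mark matches, on either strand, to letter patterns of factors known in airway epithelium or in innate immune signalling.

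Retnla, chr16:48842359-48842608: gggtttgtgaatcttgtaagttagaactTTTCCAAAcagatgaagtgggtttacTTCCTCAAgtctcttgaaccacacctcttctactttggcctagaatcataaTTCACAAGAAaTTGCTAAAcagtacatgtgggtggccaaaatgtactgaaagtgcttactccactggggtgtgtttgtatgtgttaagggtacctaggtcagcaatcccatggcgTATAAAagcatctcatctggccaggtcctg

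Bpifa1, chr2:154142630-154142879: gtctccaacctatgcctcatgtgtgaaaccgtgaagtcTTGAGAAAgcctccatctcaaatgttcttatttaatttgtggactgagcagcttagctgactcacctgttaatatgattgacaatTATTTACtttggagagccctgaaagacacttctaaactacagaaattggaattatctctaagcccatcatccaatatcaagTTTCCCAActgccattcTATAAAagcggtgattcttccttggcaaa

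Scgb3a1, chr11:49663345-49663594: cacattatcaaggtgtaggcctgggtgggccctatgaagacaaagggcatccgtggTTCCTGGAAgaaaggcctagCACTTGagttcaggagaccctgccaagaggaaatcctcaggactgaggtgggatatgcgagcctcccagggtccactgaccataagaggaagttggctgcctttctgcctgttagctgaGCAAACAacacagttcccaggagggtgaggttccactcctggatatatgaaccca

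The patterns searched were, for forkhead factors, TGTTTNC and the related form TATTTAC, for C/EBP factors TTNNGNAA, and for STAT factors TTCNNNGAA and a form with 1 more base in the gap. The pattern for NKX2 factors was CAAGTG, and that of a TATA box was TATAAA. The Retnla sequence held 3 C/EBP matches, all on the minus strand, first bases at -222, -196 and -134 from the start. It also held a match to the longer STAT pattern at -145 and a match to TATAAA at -30, and no match overlapped another. The Bpifa1 sequence held C/EBP matches at -212 and, on the minus strand, at -46, a match to TATTTAC at -127 and a match to TATAAA at -29. The Scgb3a1 sequence held a TTCNNNGAA match at -194, a CAAGTG match on the minus strand at -174 and a TGTTTNC match on the minus strand at -55. Of all 32851 upstream sequences of this length, 36.8% held the C/EBP pattern, 5.85% the longer STAT pattern, 7.02% TTCNNNGAA, 2.73% TATTTAC, 17.8% TGTTTNC, 11.6% CAAGTG and 12.4% TATAAA. A match describes the letters and is not evidence of binding.

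Library totals ran from 7163613 to 51797377 counts. The 10 genes together took between 7.81% and 18.8% of each epithelial library of S135, between 11.01% and 31.1% in S151 and between 1.01% and 8.61% in S061. Levels differed so much between batches that arms were compared within batch or with batch in the fit. As a measure of other cells' RNA, the 1332 genes at least 8-fold lower in saline epithelium than in saline whole lung took between 5.604% and 11.2% of the S061 epithelial libraries, against 0.464% to 1.41% in the other batches. The epithelial library of KIRA8 mouse 20 (S061) stood apart, with the highest share of those genes, 11.2%, and the lowest share of the 10 members. Levels below are CPM, a gene's counts scaled to the library's total, and fold changes are log2 values ± SE from fits with TMM scaling, so the 2 scales need not give the same ratio.

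**Figure D1:**
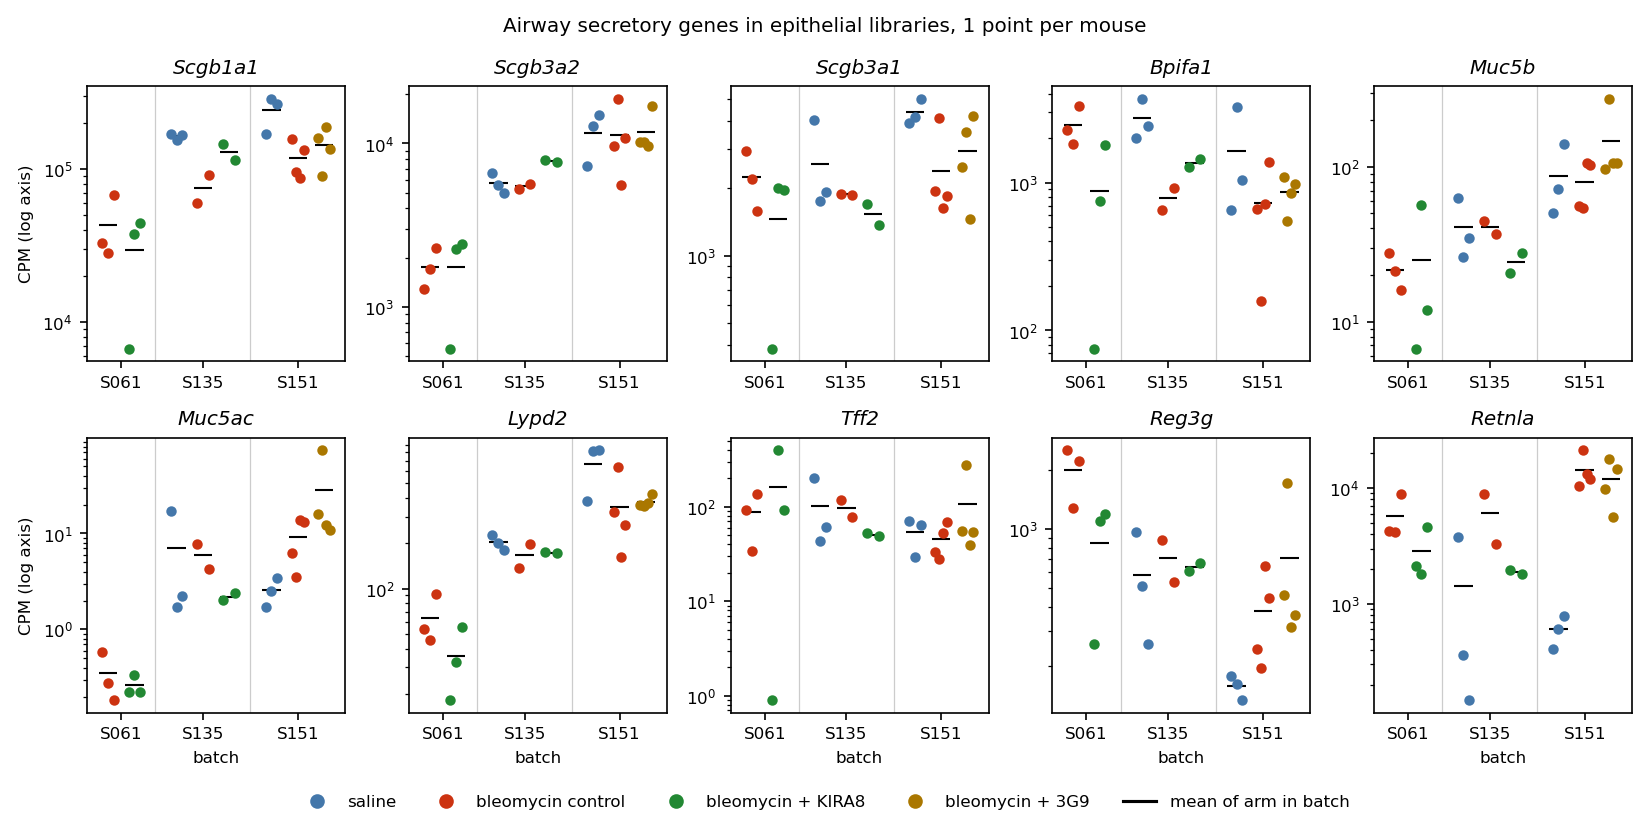
Level of each gene in the 24 epithelial libraries, in CPM on a log axis, by batch, with 1 point per mouse coloured by arm and a bar at the mean of each arm in each batch. Retnla in S151 lies between 404 and 788 CPM in saline mice and between 10433 and 21317 CPM in bleomycin control mice, and Muc5ac lies between 0.182 and 0.587 CPM in all of S061.

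The secretory genes were concentrated in the epithelial libraries. In the 6 saline mice, 9 of the 10 were higher in epithelium than in whole lung by edgeR's quasi-likelihood test, blocked by mouse. Of the 14885 genes tested 57.5% were called, 27.3% higher and 30.3% lower. The median difference of the members was 2.82 (log2), against -0.06 over all genes tested. The mucins stood apart from the other 8: Muc5ac differed by 1.01 ± 0.35 and Muc5b did not pass the test.

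Among the secretoglobins, Scgb3a1 (ENSMUSG00000064057, chr11:49663595-49665118) showed the largest difference of the 10, 3.41 ± 0.15 (adjusted p = 8.12e-08). It ranked 4 by fold among the 4059 genes called higher. Its level was between 5.07 and 7.85 times as high in epithelium as in whole lung of the saline mice. Scgb3a2 (ENSMUSG00000038791), a secretoglobin also made by club cells, followed at 3.11 ± 0.16 (adjusted p = 8.18e-08). Scgb1a1 (ENSMUSG00000024653, chr19:9083642-9087956), the main club cell protein, differed by 2.64 ± 0.17 (adjusted p = 2.25e-07), with ratios of CPM from 3.27 to 4.39 in the 6 mice. Scgb1a1 alone took 17.0%, 15.4% and 16.6% of the saline epithelial libraries of S135 and 28.9%, 26.6% and 17.0% of those of S151. Counts taken by Scgb1a1 lower the CPM of the other genes of a library, so fits were repeated with other scalings.

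Lypd2 (ENSMUSG00000022595, chr15:74732246-74734795), a small protein of the Ly6 family, differed by 3.08 ± 0.15 (adjusted p = 8.12e-08). Retnla (ENSMUSG00000061100, chr16:48842609-48844461) differed by 2.91 ± 0.19 (adjusted p = 2.83e-07). Over all 24 mice its CPM in epithelium was between 3.20 and 10.8 times that in whole lung of the same mouse, so no mouse had more Retnla in whole lung. Reg3g (ENSMUSG00000030017, chr6:78466269-78468874), a C-type lectin that binds bacteria, differed by 2.72 ± 0.16 (adjusted p = 1.56e-07). Bpifa1 (ENSMUSG00000027483, chr2:154142880-154149217), a surface-active antimicrobial protein of the upper airways, differed by 2.36 ± 0.18 (adjusted p = 8.46e-07). In the saline mice its ratio lay between 4.601 and 5.30 in S135 and between 1.71 and 2.18 in S151. The mice given bleomycin in S151, with or without 3G9, ran from 0.321 to 6.36, so over all arms the batches overlapped.

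The mucous cell genes did not share a pattern. Tff2 (ENSMUSG00000024028, chr17:31141062-31144282), a trefoil peptide secreted with mucus, was as enriched as the secretoglobins at 3.10 ± 0.20 (adjusted p = 2.29e-07), with ratios of 7.76 to 9.19 in the saline mice of S135 and 2.84 to 3.39 in those of S151. Muc5ac (ENSMUSG00000037974, chr7:141788958-141819227), the inducible goblet cell mucin, passed narrowly (adjusted p = 0.0278), with ratios from 0.437 to 2.24. Its call was lost without the mouse block (1.12, adjusted p = 0.106), with total counts in place of TMM scaling (0.24), and without saline mouse 146, 207 or 221. Muc5b (ENSMUSG00000066108, chr7:141839059-141873089), the mucin of glands and resting airways, differed by 0.48 ± 0.26 (adjusted p = 0.129), an interval at 95% from -0.02 to 0.99. Within S135 it was higher in epithelium, by 1.08 ± 0.17 (adjusted p = 0.000182), and within S151 the difference was -0.20 ± 0.27 (adjusted p = 0.556). The difference between the batches was not tested. With total counts the Muc5b value was -0.28, as that scaling moved the median of all genes to -0.84.

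**Figure D2:**
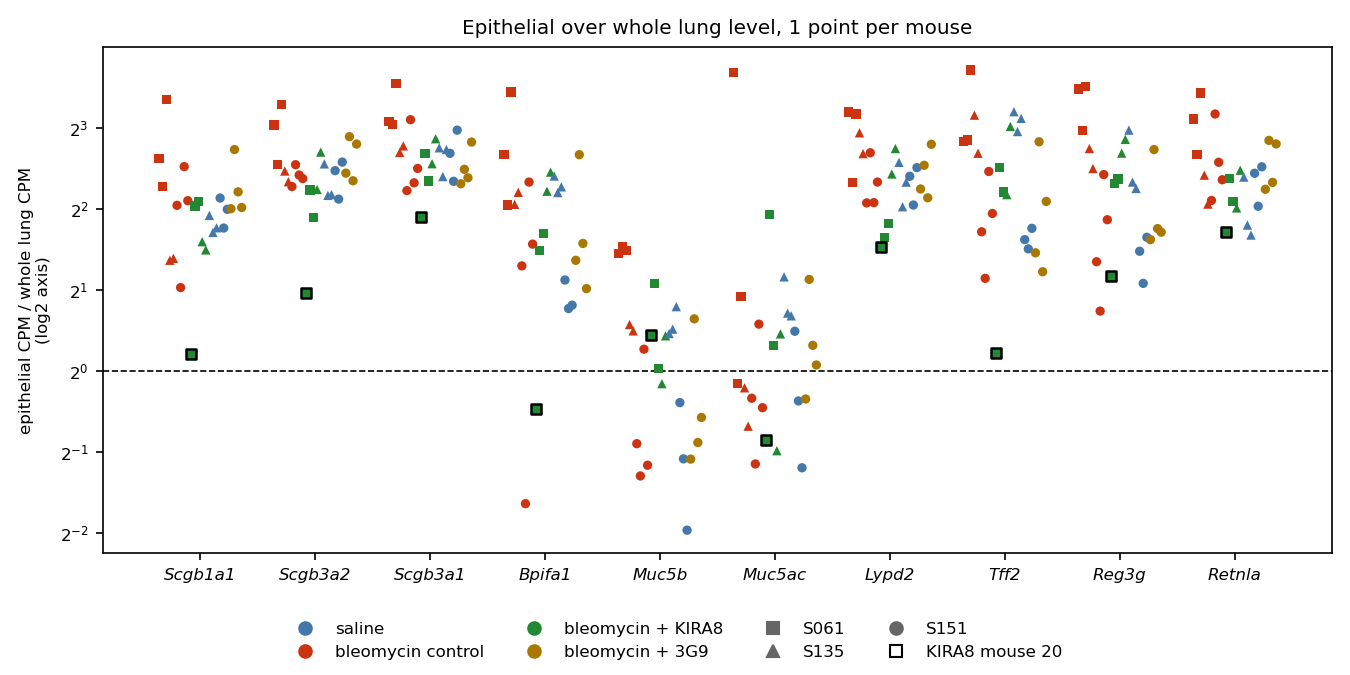
Ratio of epithelial to whole lung CPM for each gene, on a log2 axis, with 1 point per mouse, coloured by arm and shaped by batch, and KIRA8 mouse 20 outlined. A dashed line marks equal levels: Retnla, Lypd2, Scgb3a1 and Scgb3a2 lie above it in all 24 mice, while Muc5b and Muc5ac fall on both sides.

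Across all arms, Scgb1a1, Scgb3a2, Scgb3a1, Lypd2, Tff2, Reg3g and Retnla had a higher CPM in epithelium than in whole lung in 24 of 24 mice. KIRA8 mouse 20 had the lowest median ratio over the 10 genes, 1.65, followed by bleomycin control mouse 206 at 2.13, and the highest was bleomycin control mouse 45 at 10.495. In mouse 20 the Scgb1a1 ratio was 1.15, the Tff2 ratio 1.16 and the Bpifa1 ratio 0.723. Without that mouse the lowest Scgb1a1 ratio was 2.04 and the lowest Tff2 ratio 2.21, while Bpifa1 was as low as 0.321 in mouse 206.

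Bleomycin was followed by a lower level of Scgb1a1 and a much higher level of Retnla in epithelium. By edgeR's quasi-likelihood test 2 of the 10 genes were called there, where 8.72% of 17291 genes were called, 4.55% higher and 4.17% lower. In whole lung 4 of 10 were called, where 10.1% of 19345 genes were called, 6.01% higher and 4.14% lower: Scgb1a1, Bpifa1 and Lypd2 fell and Retnla rose. The median change of the 10 was -0.65 in epithelium and -0.51 in whole lung, against -0.0016 and -0.01 over all genes tested. In bulk libraries, fewer secretory cells and less RNA per cell cannot be told apart.

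Scgb1a1 was 17.0%, 15.4% and 16.6% of the epithelial libraries of the S135 saline mice and 6.01% and 9.11% in bleomycin control mice of that batch. In S151 it was 28.9%, 26.6% and 17.0% in saline and 13.2%, 9.49%, 15.7% and 8.79% in bleomycin control mice. The arms did not overlap in either batch. The 3 bleomycin control mice of S061, a batch with no saline mouse, held 3.28%, 2.81% and 6.76%. Across both batches Scgb1a1 fell by 1.25 ± 0.35 on the log2 scale (adjusted p = 0.0217). Within S135 alone it was called at -1.27 ± 0.21 (adjusted p = 0.00645), and within S151 the value was -1.50 ± 0.41 (adjusted p = 0.107). The call was lost with total counts (-0.87, adjusted p = 0.0594) and with total counts minus those of Scgb1a1 (-1.05, adjusted p = 0.0590), scalings that moved the median of all genes to 0.37 and 0.20. DESeq2 gave -1.24 (adjusted p = 0.0937), and the call was lost without bleomycin control mouse 148 or saline mouse 207, with values of -1.35 to -1.11 over 15 fits that each left out 1 mouse.

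In whole lung Scgb1a1 was 4.49%, 4.71% and 4.87% of saline and 2.33% and 3.48% of bleomycin control libraries in S135. In S151 it was 8.50%, 6.06% and 4.27% in saline and 3.08%, 4.65%, 3.80% and 1.53% in bleomycin control mice, where the arms overlapped through saline mouse 230 and bleomycin mouse 206. Scgb1a1 fell by 0.92 ± 0.25 there (adjusted p = 0.0220), a call also lost without mouse 148 or 207 and with DESeq2 (adjusted p = 0.0880).

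The other secretoglobins gave smaller values and no call over both batches. Scgb3a1 differed by -0.98 ± 0.33 in epithelium (adjusted p = 0.0631) and by -0.86 ± 0.28 in whole lung (adjusted p = 0.0524). DESeq2 called it in both compartments (adjusted p = 0.0242 and 0.0105). In S151 epithelium its saline values were 4174, 5023 and 3898 CPM, and its bleomycin control values were 1839.5, 4122, 1944 and 1632 CPM, where mouse 206 alone reached the saline range. In S151 whole lung its saline mice held 780.1, 824 and 496 CPM and its bleomycin control mice 415, 480.1, 326 and 325 CPM, with no overlap, and within that batch alone it was called lower, at -1.03 ± 0.23 (adjusted p = 0.0384). Scgb3a2 differed by -0.35 ± 0.29 in epithelium, an interval at 95% from -0.93 to 0.23, and by -0.34 ± 0.24 in whole lung. Its arms overlapped in both batches and both compartments.

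Lypd2 differed by -0.89 ± 0.33 in epithelium (adjusted p = 0.107) and fell by 1.05 ± 0.26 in whole lung (adjusted p = 0.0144), a call kept in 15 of 15 fits without 1 mouse. Its whole lung values were 38.0, 48.8 and 36.0 CPM in saline and 17.9 and 30.6 CPM in bleomycin control mice of S135. In S151 they were 196, 156 and 66.3 CPM in saline and 52.1, 99.1, 76.8 and 38.1 CPM in bleomycin control mice. The arms were apart in S135 and overlapped in S151 through saline mouse 230.

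Of the antimicrobial genes, Bpifa1 had the lowest fold of the 10 in both compartments. In whole lung it fell by 1.49 ± 0.45 (adjusted p = 0.0425), from 381, 806 and 504 CPM in saline to 158 and 198 CPM in bleomycin control mice of S135. In S151 saline mice held 1901, 475 and 373 CPM and bleomycin control mice 468, 494, 269.7 and 142 CPM, which overlapped. This call was lost in 9 of 15 fits that left out 1 mouse (without bleomycin control mouse 17, 45, 148, 149, 208R or 225, or saline mouse 152, 153 or 207). Without mouse 207, the saline mouse with 1901 CPM, the value was -1.0, and over the 15 fits the adjusted p ran from 0.0283 to 0.182. In epithelium Bpifa1 differed by -1.54 ± 0.59 (adjusted p = 0.116), and in S135 its arms did not overlap, at 2018, 3711 and 2435 CPM in saline against 658 and 915 CPM. Within S135 alone edgeR called it at -1.97 (adjusted p = 0.0274). Reg3g differed by 0.60 ± 0.41 in epithelium (adjusted p = 0.413) and by 0.49 ± 0.23 in whole lung (adjusted p = 0.190). In S151 epithelium its 3 saline mice held 178, 161 and 133 CPM and its 4 bleomycin control mice 443, 194, 243 and 648 CPM, with no overlap, whereas in S135 the arms overlapped. Within S151 whole lung alone Reg3g was called higher, by 0.77 (adjusted p = 0.0241).

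The mucous cell genes were not called in either compartment in the edgeR fits of all 24 libraries with terms for arm and batch alone. Muc5ac in whole lung differed by 1.28 ± 0.44 (adjusted p = 0.0689). Its values in S151 whole lung were 3.27, 2.44 and 3.95 CPM in saline and 18.2, 7.79, 7.90 and 9.26 CPM in bleomycin control mice, with no overlap, and within that batch alone it was called higher, at 1.60 ± 0.34 (adjusted p = 0.0304). In S135 whole lung they were 7.66, 1.04 and 1.41 CPM in saline and 8.97 and 6.79 CPM in bleomycin control mice, where saline mouse 146 lay between the bleomycin values. Without mouse 146 Muc5ac was called higher in whole lung, at 1.83 (adjusted p = 0.00674), and its epithelial value went from 0.41 to 1.24 (adjusted p = 0.0665). Muc5b differed by -0.58 ± 0.38 in epithelium and -0.46 ± 0.33 in whole lung, and Tff2 by -0.73 ± 0.71 and -0.56 ± 0.61, with intervals at 95% in epithelium from -1.32 to 0.17 for Muc5b and from -2.12 to 0.66 for Tff2. These intervals leave room for more than a 2-fold decrease.

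In whole lung 2 members were called higher with DESeq2, with sex as a term and with the 2 arms alone. Those fits called 2975, 1898 and 1771 genes in all, in either direction. Retnla was the only member called higher in the edgeR fits of all 24 libraries with terms for arm and batch alone. In S151 epithelium its saline mice held 605, 788 and 404 CPM and its bleomycin control mice 11979.9, 21317, 10433 and 13270.0 CPM, far apart. In S135 epithelium saline mice held 3778, 359.6 and 146 CPM and bleomycin control mice 8945 and 3321 CPM, where saline mouse 146 overlapped the bleomycin range. Mouse 146 was also the highest of the 6 saline mice in epithelium for Muc5ac (17.1 CPM), Tff2 (202 CPM) and Reg3g (966 CPM). This mouse was the only female of S135, so its sex cannot be told apart from other traits of the mouse there. Across both batches Retnla rose by 2.90 ± 0.68 in epithelium (adjusted p = 0.0102), and ranked 197 by fold among 787 genes called higher. In whole lung it rose by 2.84 ± 0.63 (adjusted p = 0.00816). There the saline mice held 719, 103 and 45.6 CPM in S135 and 148, 145 and 70.5 CPM in S151, and the bleomycin control mice 1675 and 797 CPM in S135 and 2333, 2365, 2426 and 2225 CPM in S151, with no overlap within either batch. Both calls were kept in 15 of 15 fits without 1 mouse. Leaving out mouse 146 raised the epithelial value to 4.10, and within batches it was 1.93 ± 1.73 in S135 (adjusted p = 0.769) and 4.13 ± 0.45 in S151.

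**Figure D3:**
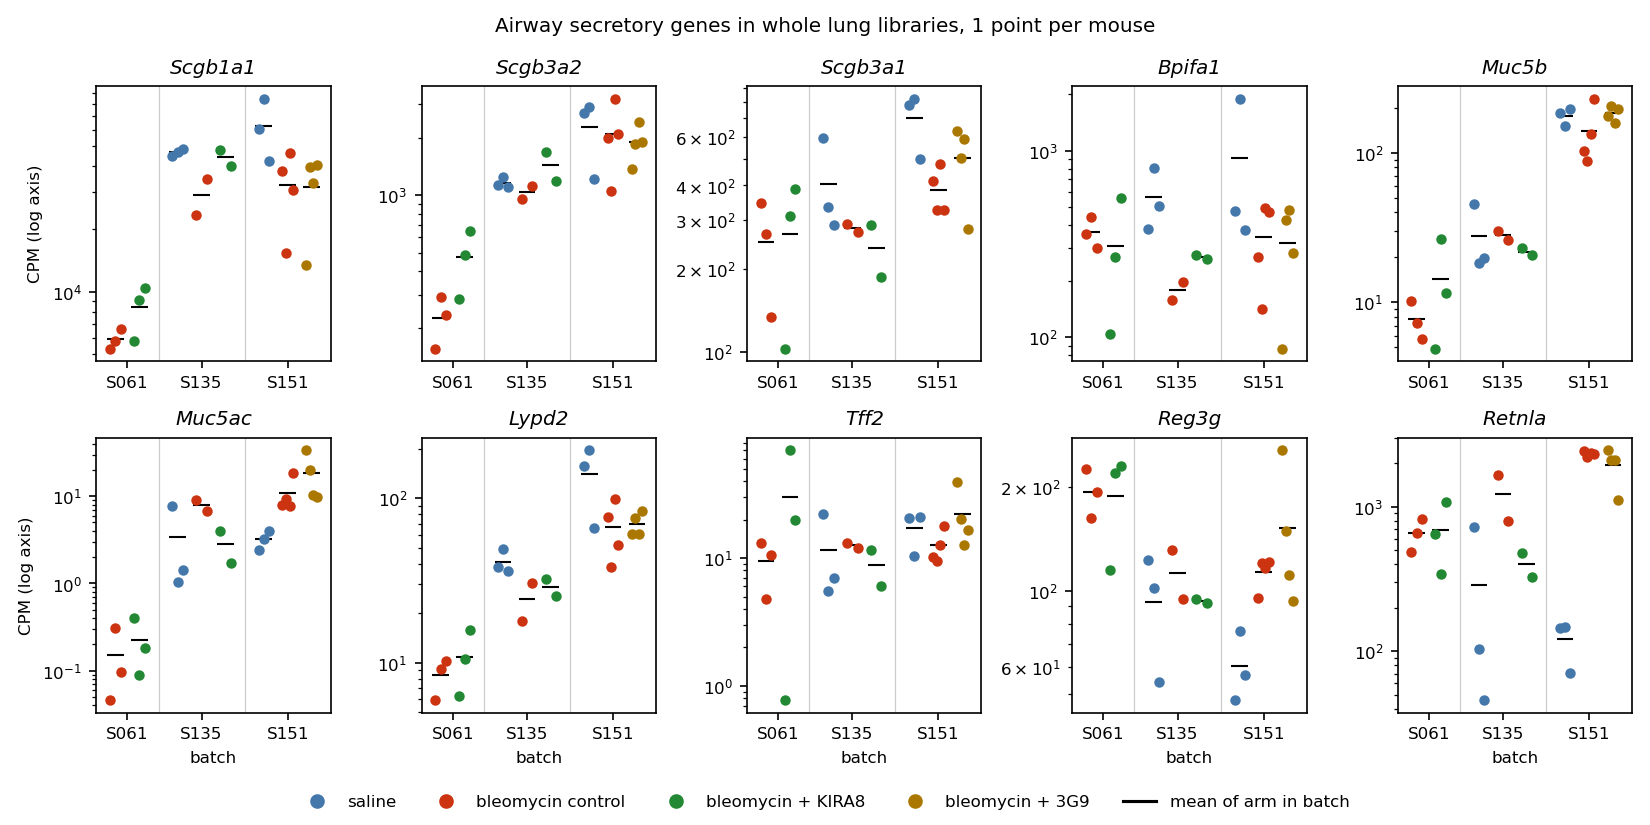
Level of each gene in the 24 whole lung libraries, in CPM on a log axis, by batch, with 1 point per mouse coloured by arm and a bar at the mean of each arm in each batch. Retnla in S151 lies between 70.5 and 148 CPM in saline mice and between 2225 and 2426 CPM in bleomycin control mice, and Bpifa1 in saline mouse 207 reaches 1901 CPM.

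The genes low in saline epithelium also moved with bleomycin in the epithelial libraries. The 1332 genes took 0.806% to 1.17% of saline and 1.39% to 1.40% of bleomycin control libraries in S135, and 0.464% to 0.643% against 0.649% to 1.26% in S151. They had been selected in the saline mice, which by itself makes those shares low. Their part in the changes of the 10 genes was not tested. In every saline and bleomycin control mouse the ratio between compartments stayed above 2 for Retnla, Scgb1a1, Scgb3a2, Scgb3a1, Lypd2 and Tff2. It did not for the other members. Bpifa1 was at 0.321 and Reg3g at 1.67 in bleomycin control mouse 206, and Muc5b was at 0.256 and Muc5ac at 0.437 in saline mouse 230.

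The response of the 10 genes to bleomycin was compared between epithelium and whole lung in 1 fit over those 15 mice (6 saline and 9 bleomycin control), blocked by mouse. None of the 10 was called by edgeR, where 0.162% of 17956 genes were called (0.111% higher and 0.0501% lower). At an unadjusted p under 0.05 there were 1627 of the 17956 genes, among them 1 member. That gene was Scgb1a1, with a difference of -0.44 ± 0.21 (adjusted p = 0.546), which is toward a larger decrease in epithelium. The difference for Retnla was 0.00 ± 0.20, an interval at 95% from -0.40 to 0.40. For the other secretoglobins it was -0.19 ± 0.15 (Scgb3a2) and -0.27 ± 0.18 (Scgb3a1). Lypd2, Muc5b, Reg3g and Tff2 differed by -0.06, -0.05, -0.09 and -0.20. For Bpifa1 it was -0.26 ± 0.46 and for Muc5ac -0.76 ± 0.45, whose interval from -1.64 to 0.12 does not exclude a sizable difference. Without the mouse block 0 members were called as well.

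**Figure D4:**
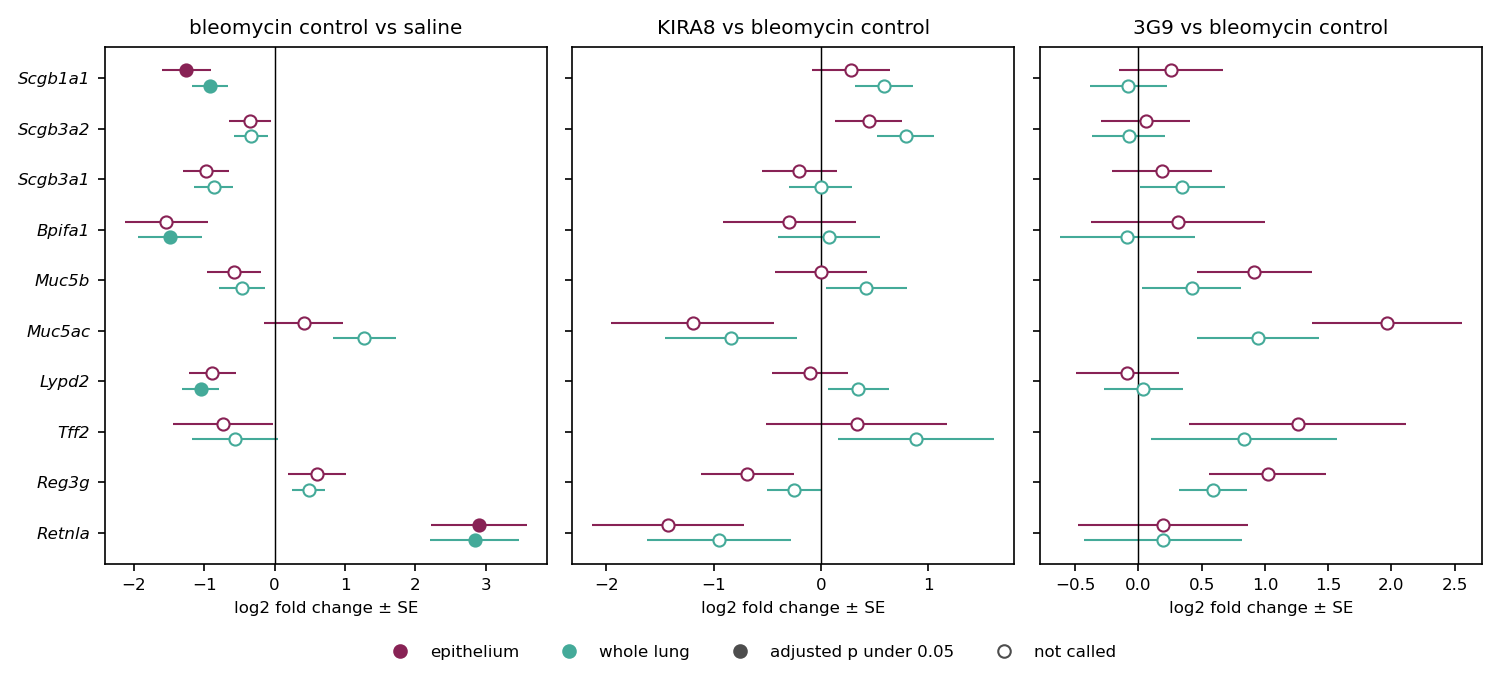
Log2 fold change of each gene in epithelium (purple) and whole lung (green) for bleomycin control against saline, KIRA8 against bleomycin control and 3G9 against bleomycin control, with bars of ± 1 SE and filled points for an adjusted p under 0.05. Filled points appear only in the first panel, for Scgb1a1 and Retnla in both compartments and for Bpifa1 and Lypd2 in whole lung.

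KIRA8 gave no call among the 10 genes. By edgeR 0 of 10 passed in epithelium, where 0.26% of genes were called (0.0868% higher and 0.174% lower), and 0 of 10 in whole lung, where 0.527% were (0.315% higher and 0.212% lower). At an unadjusted p under 0.05 by edgeR there were 0 members in epithelium, against 1981 of all 17291 genes tested. In whole lung there were 2 members at that cut, against 2977 of 19345 genes. DESeq2 called 0 members in epithelium, where it called 247 genes in all, and 1 in whole lung, where it called 701. These comparisons share the bleomycin control mice with the comparison against saline, so values of opposite sign are not independent of each other.

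The 2 whole lung genes were secretoglobins. Scgb3a2 differed by 0.79 ± 0.26 (adjusted p = 0.149), and it was the member DESeq2 called (0.81, adjusted p = 0.0404). Its whole lung values were 286, 483 and 650 CPM with KIRA8 against 156, 290.3 and 234 CPM in bleomycin control mice of S061. In S135 they were 1686 and 1186 CPM with KIRA8 against 955 and 1114 CPM. Every KIRA8 mouse lay above all controls in S135, and in S061 mouse 20 overlapped the controls. Scgb1a1 differed by 0.59 ± 0.27 in whole lung (adjusted p = 0.290) and by 0.28 ± 0.36 in epithelium (adjusted p = 0.829). Its share of epithelial libraries in S135 was 14.6% and 11.4% with KIRA8 against 6.01% and 9.11% in controls. In S061 it was 0.670%, 3.75% and 4.47% against 3.28%, 2.81% and 6.76%, where the lowest was mouse 20. Without mouse 20 the epithelial value was 0.57. Scgb3a1 differed by -0.20 ± 0.35 in epithelium (95% interval from -0.88 to 0.48) and by 0.00 ± 0.29 in whole lung (95% interval from -0.57 to 0.57). Its epithelial values in S135 were 1696 and 1363 CPM with KIRA8, below the controls at 1885 and 1868 CPM, and the arms overlapped in S061. Lypd2 differed by -0.10 ± 0.35 in epithelium and 0.35 ± 0.28 in whole lung, with overlap in both batches and both compartments.

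Retnla differed by -1.42 ± 0.71 in epithelium (adjusted p = 0.455) and by -0.95 ± 0.67 in whole lung (adjusted p = 0.524). In S135 epithelium KIRA8 mice held 1944 and 1828 CPM against 8945 and 3321 CPM in controls, with no overlap. In S061 epithelium they held 2124, 1794 and 4589 CPM against 4236, 4186 and 8869 CPM, where mouse 41 overlapped the controls. The epithelial value ranged from -1.82 without mouse 41 to -1.19 without mouse 155, with an adjusted p of at least 0.319 in all 14 such fits. In S061 whole lung the values were 648, 345 and 1074 CPM with KIRA8 against 490.2, 657 and 821 CPM in controls, which overlapped. In S135 whole lung they were 482 and 328 CPM against 1675 and 797 CPM, with no overlap (-1.55 ± 0.38 within that batch, adjusted p = 0.496).

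Bpifa1 showed opposite directions in the 2 batches. In S061 epithelium KIRA8 mice held 75.4, 755 and 1798 CPM, all below the controls at 2278, 1815 and 3285 CPM. In S135 epithelium they held 1275 and 1435 CPM, both above the controls at 658 and 915 CPM. The fitted values were -1.34 ± 1.05 within S061 and 0.88 ± 0.19 within S135, neither called, and their difference was not tested. Mouse 20, the lowest of these, also had the highest share of genes low in saline epithelium. Without it the value over both batches was 0.08, against -0.29 ± 0.62 with it. That share was not raised in mouse 20 alone. In S061 epithelium it ran from 8.13% to 11.2% in the 3 KIRA8 mice and from 5.60% to 8.10% in the 3 controls, with no overlap. Its part in the S061 epithelial values was not tested. In S061 whole lung the Bpifa1 arms overlapped.

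Reg3g in epithelium differed by -0.69 ± 0.43 (adjusted p = 0.579), with all 3 KIRA8 mice of S061 (259, 1097 and 1195 CPM) below the controls (2519, 1278 and 2220 CPM) and overlap in S135. These 3 mice also held more of the genes low in saline epithelium than their controls. In whole lung the Reg3g arms overlapped in both batches. The mucous cell genes gave different pictures in the 2 batches. In S135 both KIRA8 mice lay below both controls for Muc5b, Muc5ac and Tff2, in epithelium and in whole lung. With 2 mice per arm such separation is weak, and the 2 compartments come from the same mice. Its share over all genes was not taken. Epithelial Tff2 was 52.6 and 49.0 CPM there with KIRA8 against 118 and 77.1 CPM (-0.81 ± 0.20 within that batch, adjusted p = 0.157). Epithelial Muc5b was 20.6 and 27.8 CPM against 44.8 and 36.8 CPM (-0.65 ± 0.25, adjusted p = 0.425). At an adjusted p under 0.05, edgeR within S135 epithelium called 0 of the 10 members and 15 of 13794 genes. At an unadjusted p under 0.05 there were 7 members. The share of all genes at that cut was not taken, so these 7 cannot be set against it. In S061 the arms overlapped for all 3 mucous cell genes. Muc5b over both batches differed by 0.00 ± 0.43 in epithelium (95% interval from -0.84 to 0.85) and by 0.43 ± 0.38 in whole lung. Tff2 in S061 epithelium ran from 0.896 CPM in mouse 20 to 397 CPM in mouse 32, and its value of 0.33 ± 0.85 became -0.65 without mouse 32. Muc5ac differed by -1.20 ± 0.76 in epithelium (adjusted p = 0.586). It lay between 0.182 and 0.587 CPM in the S061 epithelial libraries, too low for a fit within that batch, and at 2.02 and 2.37 CPM with KIRA8 against 7.76 and 4.23 CPM in S135.

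With 3G9, too, 0 of the 10 genes were called by edgeR in either compartment. In epithelium 0% of genes were called (566 had an unadjusted p under 0.05, and DESeq2 called 36 genes), and in whole lung 0.196% (0.165% higher and 0.031% lower). At an unadjusted p under 0.05 there were 2 members in epithelium, Muc5ac and Reg3g. In whole lung there was 1 member at that cut, Reg3g, against 1343 of 19345 genes. DESeq2 called 0 members in both, and it called 222 genes in all in whole lung. The 4 mice with 3G9 and the 4 bleomycin control mice of their batch overlapped for each of the 10 genes in both compartments.

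The largest values in epithelium were those of Muc5ac, Tff2, Reg3g and Muc5b, and each was smaller without mouse 218. Muc5ac in epithelium was 73.7 CPM in mouse 218 and 10.8, 12.1 and 15.8 CPM in the other 3, against 13.3, 3.51, 6.25 and 13.8 CPM in bleomycin control mice. Its value of 1.97 ± 0.59 (adjusted p = 0.923) became 1.0 without mouse 218. Tff2 was 279 CPM in mouse 218 and 39.0 to 55.3 CPM in the others, and its value of 1.26 ± 0.86 became 0.29. Muc5b was 276 CPM in mouse 218 against 96.1 to 106 CPM, and its value of 0.92 ± 0.46 became 0.51. Reg3g was 1706 CPM in mouse 218 against 316 to 460 CPM, and its value of 1.02 ± 0.47 became 0.25. In whole lung mouse 218 was likewise the highest of the 4 for Muc5ac (33.7 CPM), Tff2 (39.3 CPM) and Reg3g (257 CPM), but not for Muc5b (177 CPM). The table column read as its whole lung library carries a suffix the labels do not explain. Mouse 218 also had the lowest Scgb1a1 and Bpifa1 of the 4 in both compartments.

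The club cell genes gave small values with 3G9. Scgb3a1 differed by 0.18 ± 0.40 in epithelium (95% interval from -0.59 to 0.96) and by 0.35 ± 0.34 in whole lung (95% interval from -0.31 to 1.01). Scgb1a1 differed by 0.26 ± 0.41 in epithelium (95% interval from -0.55 to 1.06) and by -0.08 ± 0.30 in whole lung (95% interval from -0.68 to 0.52). Bpifa1 differed by 0.31 ± 0.68 in epithelium and by -0.09 ± 0.53 in whole lung. Scgb3a2 differed by 0.06 ± 0.35 and -0.08 ± 0.29, and Lypd2 by -0.09 ± 0.41 and 0.04 ± 0.31. Retnla was at 9923, 17748, 5611 and 14774 CPM in epithelium, above all 3 saline mice of the batch and overlapping the bleomycin control mice. Its value against bleomycin control was 0.19 ± 0.67, with a 95% interval from -1.12 to 1.51, and -0.21 ± 0.37 within S151 alone.

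Mice also differed among themselves within an arm, and some members did so together. For each of 24 mice per compartment, deviations of log2 CPM from the mean of its arm in its batch were correlated between all 45 pairs of members, with p from 100000 permutations of mice within arm and batch and Benjamini-Hochberg adjustment over the 45 pairs. Of these, 7 pairs passed in epithelium and 6 in whole lung, all with a positive r, and each also passed by Spearman's rho. The 2 genes of a pair are read from the same library and share its scaling. Pairs of other genes were not correlated, so these counts cannot be set against a share over all genes. The part of other cells' RNA, whose share differed between libraries, was not tested.

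In whole lung 5 of the 6 pairs that passed lay among Scgb1a1, Scgb3a2, Lypd2 and Bpifa1. Scgb3a2 with Lypd2 had r = 0.876 (rho = 0.793, adjusted permutation p = 0.0063), Scgb1a1 with Scgb3a2 had r = 0.801, Scgb1a1 with Bpifa1 0.799, Scgb1a1 with Lypd2 0.775 and Scgb3a2 with Bpifa1 0.748. Scgb3a1 passed with no member there, at r = 0.185 with Scgb1a1, 0.447 with Scgb3a2 and 0.37 with Lypd2. In epithelium Scgb3a2 with Lypd2 had r = 0.881 (rho = 0.840, adjusted permutation p = 0.0018), Scgb1a1 with Bpifa1 0.782, Scgb3a2 with Scgb3a1 0.754 and Scgb1a1 with Lypd2 0.655.

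The mucous cell genes and Reg3g gave the remaining pairs, and those that passed were not the same in both compartments. In epithelium Muc5b with Muc5ac, which lie close together on chromosome 7, had r = 0.642 (rho = 0.748, adjusted permutation p = 0.0018). Muc5ac with Reg3g had r = 0.686 and Tff2 with Reg3g 0.746, and in whole lung Muc5b with Tff2 had 0.860. Muc5b with Muc5ac was at r = 0.0866 in whole lung, Muc5ac with Reg3g at 0.23 and Tff2 with Reg3g at 0.649, none of which passed. Muc5b with Tff2 had r = 0.718 in epithelium and did not pass there (adjusted permutation p = 0.131). The difference between the compartments was not tested. No pair of Muc5ac with Scgb1a1, Scgb3a2 or Bpifa1 passed, with r of -0.22, -0.21 and -0.01 in epithelium and -0.40, -0.19 and -0.39 in whole lung. No pair with Retnla passed in either compartment.

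When the 2 mice farthest from the median of the first gene of a pair were left out, 2 of the 7 epithelial pairs still passed, Scgb3a2 with Lypd2 (r = 0.859) and Muc5b with Muc5ac (r = 0.845). The other 5 no longer passed. Tff2 with Reg3g went from 0.746 to 0.802, and the r of the other 4 lay between 0.510 and 0.572, below their values over all mice. In whole lung 4 of the 6 pairs still passed, Scgb1a1 with Lypd2 (0.876), Scgb3a2 with Lypd2 (0.814), Scgb3a2 with Bpifa1 (0.681) and Muc5b with Tff2 (0.659).

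**Figure D5:**
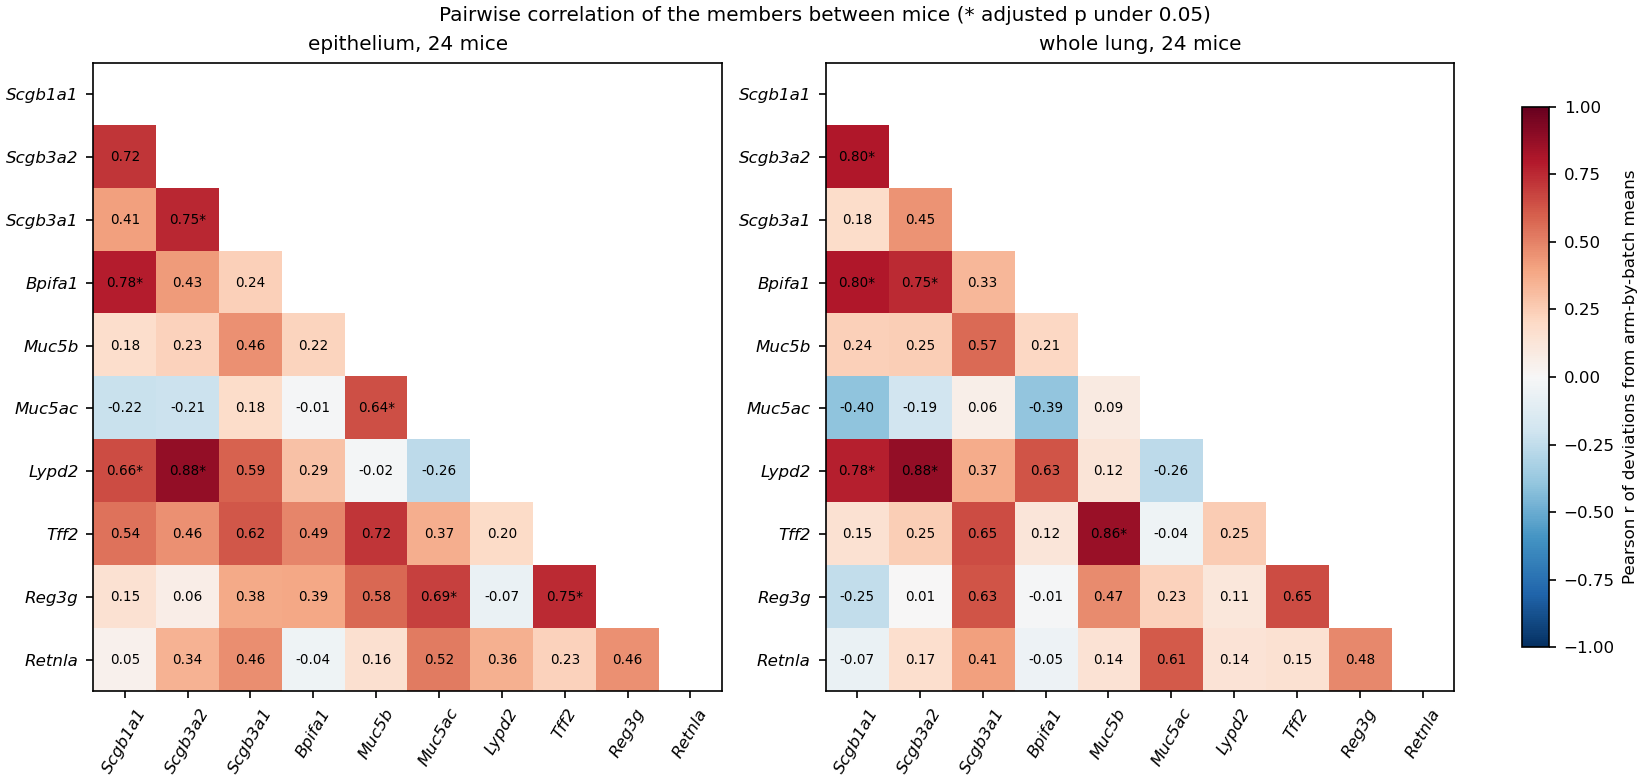
Pearson r between each pair of the 10 genes across 24 mice, computed on deviations of log2 CPM from the mean of each arm in each batch, for epithelium (left) and whole lung (right), with a colour scale from -1 to 1 and an asterisk for an adjusted permutation p under 0.05. The marked pairs number 7 in epithelium and 6 in whole lung, and the highest r in each is Scgb3a2 with Lypd2, at 0.881 and 0.876.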

How the data were processed

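The authors deposited 1 table of raw read counts per Ensembl gene and library, covering 42548 genes without normalization, 10826 of them at 0 throughout. The submitters' processing notes name STAR 2.5.2b and build GRCm38. The program that counted the reads and its annotation were not given in the sources used here. Columns were matched to samples by mouse number and a letter, with E taken to mean epithelium and I whole lung.

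CPM are counts divided by the library total. Fold changes come from edgeR 4.0.16 (R 4.3.3), with the quasi-likelihood test, TMM scaling, robust dispersions, a filterByExpr filter by arm and Benjamini-Hochberg adjustment over all genes, called at an adjusted p under 0.05. Arms were compared with terms for arm and batch over the 24 libraries of a compartment. The SE is the fold change over the root of F, and 95% intervals use a normal approximation. The 2 libraries of a mouse were paired through the mouse number in the labels. DESeq2 1.42.0 was an alternative. The fits were tested on simulated data. Each mouse is 1 replicate.

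By rule all 10 members are named in every comparison. The members and lists were chosen with earlier results of these data known. The lists of cell type markers and of other secretory, mucous and pathway genes, and the search for genes of like pattern, could not be applied, because the RefSeq table (49997 genes) holds no Ensembl identifiers and matched 0 of the table's identifiers, although 10 of 10 members matched by symbol. The labelled epithelium was therefore checked only through the 10 members. No column of samples was left unused. The 1332 genes low in saline epithelium were chosen after the data were seen, with a mean of at least 5 CPM in whole lung.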

Additional observations from a re-analysis of the deposited data

Results flagged for a closer look

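Within arms of 4 to 10 mice, 8 of the 80 gene, compartment and arm groups held a mouse that lay farther from the others than Dixon's 95% critical value allows. Chance gives about 1 in 20 such groups, and some arms span batches whose levels differ.

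In epithelium, KIRA8 mouse 20 was low for Scgb3a1 at 384 CPM and for Bpifa1 at 75.4 CPM, and its library had the highest share of genes low in saline epithelium (11.2%). KIRA8 mouse 41 was high for Retnla at 4589 CPM. With 3G9, mouse 218 was high for Muc5b at 276 CPM and mouse 219 was high for Scgb3a2 at 16955 CPM. Saline mouse 146 was high for Muc5ac at 17.1 CPM. In whole lung, bleomycin control mouse 45 was low for Scgb3a1 at 134.7 CPM and bleomycin control mouse 31 was low for Tff2 at 4.76 CPM. Both come from batch S061.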

How the results depend on the processing

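The alternatives were RLE size factors, no filter on low counts, DESeq2, sex as a term, the 2 arms alone, single batches, the fit without the mouse as a replicate block and leaving out each mouse, with total counts without TMM, with or without Scgb1a1, added after seeing the data. The number of all genes called also moved between settings and is given in brackets. For bleomycin against saline in epithelium, the main fit called 2 members (1508). Only 1 was called with no filter (1157), with total counts (3622), with total counts minus Scgb1a1 (1774) and within S151 (321). With DESeq2 (2126) and with the 2 arms alone (790), 4 were called. Leaving out 1 mouse gave 1 to 4 members there (1035 to 1859) and 2 to 5 of whole lung (1178 to 2115). The main fit of whole lung called 4 (1962), and within S135 0 were called (79). In whole lung 3 were called with no filter (1442) and with either total count scaling (1983 and 1746). RLE size factors (2058), DESeq2 (2975) and sex as a term (1898) each gave 5 there, and the 2 arms alone (1771) gave 6. DESeq2 called 1 member for KIRA8 in whole lung (701). Without the replicate block 8 members in place of 9 were higher in saline epithelium, with 8 to 10 when a mouse was left out. Genes called there in either direction numbered 8655 in place of 8565, and 7493 to 8469 when a mouse was left out. Without the block 0 members differed in bleomycin response between compartments (9). Leaving out 1 mouse gave 0 to 0 members for KIRA8, 3G9 and that response. Of the 45 correlations in epithelium, 2 passed without the 2 farthest mice, against 7. Single gene values were also followed under settings other than leaving out 1 mouse. Of these, 598 kept their side of the threshold, 21 lost a call and 18 gained one. The main fits called 2 members in epithelium and 4 in whole lung after bleomycin, and 9 between compartments. Most of the 598 were thus uncalled in both fits, so that count is no measure of how stable the calls were. No value called in either fit changed sign. Uncalled values that changed sign are among the 598, such as epithelial Muc5ac after bleomycin, at 0.41 and at -0.39 within S135. The cause of these changes was not tested. Depth limits Muc5ac most, which lay between 0.0457 and 0.587 CPM in the libraries of S061, and 2 or 3 mice per arm limit the tests within batches.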
